A study of Mus musculus with 17 samples.

Results

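The loops of 9 SOX genes were followed in H3K27ac HiChIP libraries of mouse embryoid bodies (EBs). HiChIP joins chromatin contacts in the nucleus and pulls down those that carry a chosen mark, here H3K27ac, the acetylation found on active promoters and enhancers. The deposited unit is a loop: a pair of anchors, which are stretches of chromatin, and the number of read pairs that joined them. A gene was given every loop with an anchor within 5 kb of one of its start sites in the mm9 build of the mouse genome. The 9 genes were Sox1, Sox2 and Sox21 of the SoxB class, Sox4 and Sox11 of SoxC, Sox5 and Sox6 of SoxD, and Sox8 and Sox9 of SoxE. They held 905 of 1211657 loops, with 1431 read pairs in bulk libraries and 228 in libraries of sorted cells, and all 9 passed the minimum of 20 read pairs for the test.

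Both groups came from mouse embryonic stem cells that had formed EBs in hanging drops and had then been kept in 0.5 µM retinoic acid (RA) for 4 days. The 12 bulk libraries came from unsorted cells. The 5 libraries labelled cluster2 came from cells sorted as positive for both EpCAM and CD38, surface markers the study chose for one of its subpopulations, collected in 5 independent FACS runs. They are called double positive below. Bulk cells were not depleted of double positive cells, so bulk values contain that population as well. The labels give no genotype, and nothing says that the bulk libraries came from separate cultures, so p-values measure the spread between these libraries, which may be technical. Bulk libraries held 65148 to 241068 read pairs in loops and double positive libraries 50508 to 118179.

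SOX proteins are transcription factors that bind and bend DNA through a shared HMG box, usually beside a partner factor such as a POU protein. Retinoic acid drives cells of EBs toward neural fates, in which SoxB proteins hold progenitors and SoxC proteins act in cells that are becoming neurons. SoxD proteins lack a transactivation domain of their own and often work beside SoxE proteins, which act in neural crest, glia and cartilage.

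The promoters of 4 of the genes are shown because their loops carried the main contrasts below. Sox4 and Sox11 had the most bulk read pairs, Sox2 is the progenitor factor, and Sox8 was the one gene not called lower. Each is the 250 bases before the most upstream annotated start site in mm9, on the strand of the gene, read 5′ to 3′. They lie at chr3:34548677-34548926 on the plus strand (Sox2), and on the minus strand at chr13:29045583-29045832 (Sox4), chr12:28027575-28027824 (Sox11) and chr17:25707632-25707881 (Sox8). Capitals mark a CCAAT box (CCAAT or ATTGG) or a GC box (GGGCGG or CCGCCC), searched on both strands.
Sox2: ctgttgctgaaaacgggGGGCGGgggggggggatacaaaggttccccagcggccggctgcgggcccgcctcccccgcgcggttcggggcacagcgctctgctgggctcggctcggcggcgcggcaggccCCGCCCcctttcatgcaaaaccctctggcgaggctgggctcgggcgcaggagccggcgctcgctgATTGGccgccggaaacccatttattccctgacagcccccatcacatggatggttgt
Sox4: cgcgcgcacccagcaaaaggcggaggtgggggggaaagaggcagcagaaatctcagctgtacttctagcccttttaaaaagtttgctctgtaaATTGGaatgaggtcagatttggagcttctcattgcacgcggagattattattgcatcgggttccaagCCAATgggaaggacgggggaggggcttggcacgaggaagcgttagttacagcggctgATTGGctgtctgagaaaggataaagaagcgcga
Sox11: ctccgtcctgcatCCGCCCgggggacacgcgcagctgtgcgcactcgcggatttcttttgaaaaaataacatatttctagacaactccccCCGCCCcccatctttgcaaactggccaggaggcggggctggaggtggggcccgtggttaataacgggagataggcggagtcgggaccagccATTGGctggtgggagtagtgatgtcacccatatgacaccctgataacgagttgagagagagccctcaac
Sox8: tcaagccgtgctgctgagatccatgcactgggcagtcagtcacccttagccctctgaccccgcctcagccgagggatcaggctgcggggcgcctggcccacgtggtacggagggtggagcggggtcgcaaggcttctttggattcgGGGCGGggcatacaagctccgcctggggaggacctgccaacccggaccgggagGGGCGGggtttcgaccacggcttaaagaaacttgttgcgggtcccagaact
CCAAT boxes stood in 5 of the 9 SOX promoters and in 35% of all 22368 protein-coding promoters of this length. GC boxes stood in 4 of the 9 and in 39.6% of all. Sox4 held 3 CCAAT boxes and no GC box, and Sox8 held 2 GC boxes and no CCAAT box. None of the 9 windows held the letters of a TATA box (TATAAA or TTTATA, 12.3% of all promoters) or of the octamer ATGCAAAT in either direction (1.62%), which says only that these letters were not there.

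Read pairs at the SOX start sites were lower in double positive than in bulk libraries at 8 of the 9 genes. Counts were scaled by TMM, which sets libraries level on the bulk of their genes, and are given as CPM, the read pairs of a gene as counts scaled to one common library total. The calls come from edgeR's quasi-likelihood test over 14116 genes with Benjamini-Hochberg adjustment and an adjusted p under 0.05. Of all genes tested, 42.8% were called lower and 20.6% higher, with a median log2 fold change of -0.52, so many genes besides the SOX genes fell. The direction rests in part on the scaling: with library size alone the median of all genes moved to 1.21, 3 SOX genes were lower (Sox2, Sox11 and Sox5, against 26.2% of all genes), Sox1 turned to 0.05 and Sox8 was higher. Measured from the median gene, the 7 SOX genes other than Sox5 and Sox8 lay below it under both scalings. In cells of a mixture, fewer cells with a loop and fewer loops per cell cannot be told apart.

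**Figure D1:**
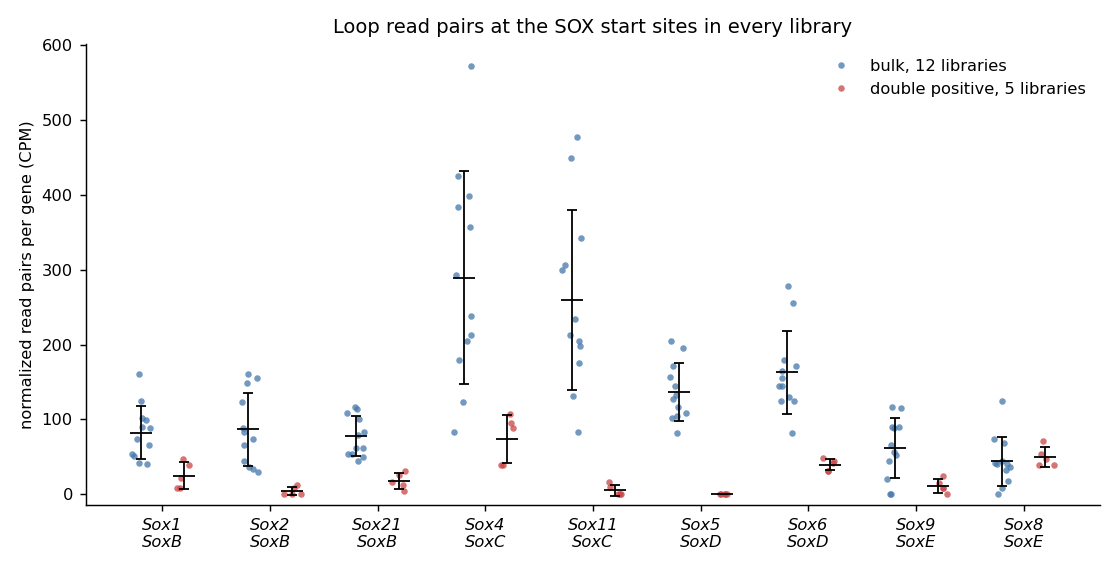
Normalized read pairs (CPM, TMM scaling) at each SOX gene in the 12 bulk (blue) and 5 double positive (red) libraries, one point a library, with the mean and SD in black. Double positive points of Sox2, Sox21, Sox11, Sox5 and Sox6 lie below every bulk point, those of Sox8 and Sox9 lie within the bulk range, and Sox1 and Sox4 overlap in part. With library size alone only Sox11 and Sox5 stay clear of the bulk points.

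**Figure D2:**
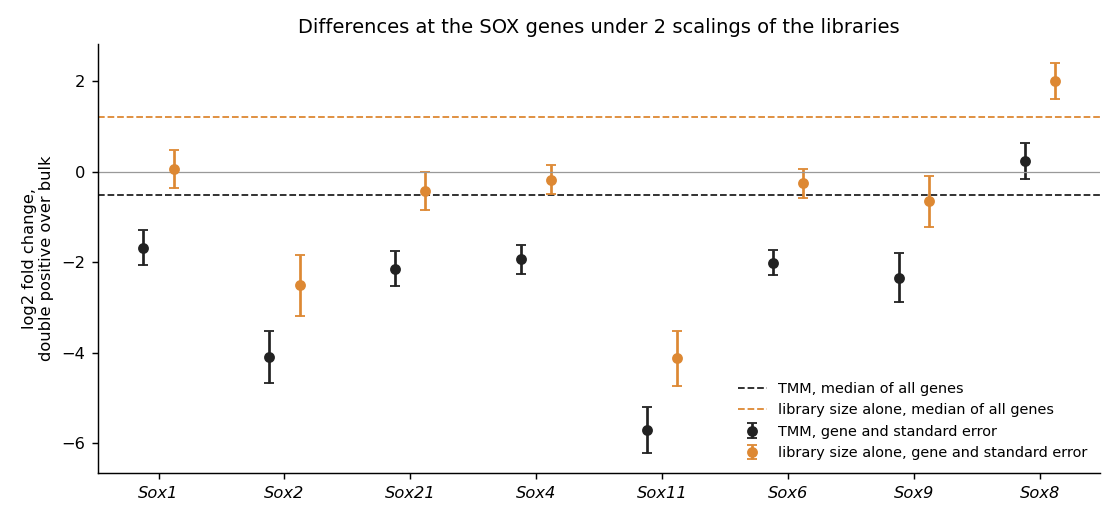
Log2 fold change of double positive over bulk libraries for 8 SOX genes, with standard errors, under TMM scaling (black) and library size alone (orange), with the median of all tested genes as dashed lines (-0.52 and 1.21). Both scalings move the genes and the median together, Sox1 changes sign between them, and Sox5 is left out because no double positive library held a read pair.

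A difference between the 2 sets of anchors stands beside every value. Bulk loops used 216073 anchors and double positive loops 15082, of which 15074 were in both. Of the double positive anchors 73.4% lay within 5 kb of a start site, against 18.2% of the bulk anchors. The files list only anchors with a read pair, so an anchor that was not offered to the double positive libraries and an anchor that drew no read pair there look the same. Of the 26 anchors at SOX start sites, 13 were used in double positive libraries. Counting only loops whose anchors were both in use in both groups, 7 SOX genes could be tested, and Sox21, Sox4, Sox11 and Sox9 were lower, beside 988 of 9846 genes with a median of 0.42. Sox11 was then at -4.70 and Sox4 at -1.63, and Sox2 and Sox5 had too few read pairs left. Over the SOX loops, 102 were seen in double positive libraries and 850 in bulk, and the 47 in both made up 46.1% of the former and 5.53% of the latter. The cell types could be checked through marker lists, beside the 42.8% of all genes tested that were lower and the 20.6% that were higher. Of 10 neural markers tested, 7 were lower (70%). Their summed level ran from 1061 to 2361 CPM in bulk and from 267 to 357 CPM in double positive libraries. Of 14 markers of extraembryonic endoderm 8 were higher (57.1%) and 2 lower (14.3%), with sums of 595 to 1030 and 2109 to 2638 CPM. Col4a1 and Col4a2, both among the 8, start at 11312826 and 11312805 of chromosome 8 and each held 256 double positive read pairs. These read pairs are therefore counted for both genes. Neither sort marker passed the test: the log2 fold change was 1.05 for Epcam (adjusted p = 0.107, edgeR) and 0.65 for Cd38 (adjusted p = 0.195), in the direction of the sort. Of 4 pluripotent cell markers tested 3 were higher (75%) and 1 lower (25%): Esrrb, with 132 bulk and 0 double positive read pairs. Nanog, Zfp42 and Fgf4 were not tested, with 14, 12 and 8 bulk and 0, 5 and 0 double positive read pairs. The sums of this list overlapped, at 147 to 522 CPM in bulk and 158 to 313 CPM in double positive libraries. Of 3 mesoderm markers 2 were lower (66.7%), and the sums overlapped too, at 302 to 572 and 288 to 362 CPM. The part of these cell types in the SOX values was not tested.

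Sox2, the factor that holds neural progenitors and pluripotent cells, was nearly without loops in double positive libraries. It is a gene of a single exon on chromosome 3, with start sites from 34548927 to 34549058. Bulk libraries held 2 to 17 read pairs each, 97 in all, with a lowest level of 30.1, a median of 78.2 and a highest of 160 CPM. The double positive libraries held 0, 0, 0, 1 and 3 read pairs, or 0 to 12.3 CPM. No double positive library reached the lowest bulk library. The mean was 86.7 ± 48.7 CPM (SD, n = 12) in bulk and 4.04 ± 5.75 CPM (SD, n = 5) in double positive libraries. The log2 fold change, with its standard error (SE), was -4.09 (SE 0.58, adjusted p = 3.05e-07, edgeR). Without double positive replicate 5, which held 3 of the 4 read pairs, it was -5.14. With library size alone it was -2.51 (adjusted p = 0.000995), and the groups overlapped. With TMM scaling, groups that do not overlap in this direction were found for 14.9% of all genes tested and for 5 of the 9 SOX genes. Around Sox2, 18 of 40 other genes tested within 5 Mb were lower, with a median of -0.83.

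The partners of Sox2 in bulk lay mostly downstream and far away. Of the 97 bulk read pairs 72 reached downstream, 84 ended between protein-coding genes, and the median span was 435 kb. The partner with the most read pairs was close by, 9.01 kb upstream (chromosome 3, 34537546 to 34542292), with 10 bulk read pairs, of which 7 came from the main promoter anchor in 4 libraries. Further partners lay 453 kb downstream and 833 kb downstream, with 6 read pairs each. Neither these anchors nor the one 9.01 kb upstream was used by any double positive library, in loops of any gene. The stretch from 100 to 120 kb downstream, where a known enhancer cluster of embryonic stem cells lies, held 3 bulk and 0 double positive read pairs. The loop with the most double positive read pairs spanned 439 kb and held 2 read pairs in each group, both double positive ones in replicate 5.

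Sox1, an early marker of neural commitment, was lower by TMM scaling and level with library size alone. GENCODE M1 does not list it under this name, so its start site at chromosome 8, 12395519, was placed by a unique exact match of its 300-base RefSeq promoter. Bulk levels ran from 40.2 to 160 CPM around a median of 80.7, and the double positive libraries held 21.9, 39.1, 7.86, 47.3 and 8.22 CPM in replicates 1 to 5. The groups overlapped, with 4 of the 5 double positive libraries below every bulk library. The means were 82.4 ± 35.9 and 24.9 ± 17.9 CPM, with a log2 fold change of -1.68 (SE 0.39, adjusted p = 0.000358, edgeR). Without scaling the pooled groups were level, at 54.5 and 56.2 CPM, and the direction turned to 0.05 with library size alone (adjusted p = 0.916). On anchors used by both groups alone, the log2 fold change was -0.84 (adjusted p = 0.162, edgeR). Within 5 Mb of Sox1, 26 of 48 other genes tested were lower, with a median of -1.07.

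The partners of Sox1 are given as counts, with no test. In double positive libraries 18 of 23 read pairs ended at the start site of another gene, against 13 of 88 in bulk, where 52 ended between genes (here and below, between protein-coding genes). Tubgcp3, which encodes a part of the gamma-tubulin complex, was joined by 5 double positive and 4 bulk read pairs over 270 to 280 kb. The start site of Gm5607, about 10.4 kb upstream, was joined by 5 and 2. The bulk loop with the most read pairs, 5, reached a stretch between genes 106 kb downstream, and its partner anchor had 18 bulk and 0 double positive read pairs in all its loops. The same turn toward start sites held for all start-site loops of the series: both ends lay at start sites for 31.4% of such bulk read pairs and 73.2% of double positive ones.

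Sox21, a SoxB protein that represses and opposes Sox2 in progenitors, fell without overlap. Its start sites lie on chromosome 14 from 118635310 to 118636252, on the minus strand. Bulk libraries ran from 44.7 to 117 CPM and double positive libraries held 25.5, 4.88, 15.7, 31.5 and 12.3 CPM. The means were 77.3 ± 26.8 and 18 ± 10.6 CPM, a log2 fold change of -2.14 (SE 0.38, adjusted p = 1.07e-05, edgeR), which was -0.42 with library size alone (adjusted p = 0.355). Many genes nearby fell too: 20 of 26 tested within 5 Mb were lower, with a median of -1.37. Over both promoter anchors, a partner 180 kb upstream, between genes, held 5 bulk and 4 double positive read pairs, and one 199 kb upstream held 6 and 3. Close to the gene, 10.2 kb downstream, 5 bulk read pairs stood against 0, at an anchor that no double positive library used. Its most frequent start-site partner was that of Gpr180 and Tgds, with 3 bulk and 2 double positive read pairs.

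Sox4, a SoxC factor of many progenitor types as well as young neurons, had the most read pairs of the 9 genes in both groups. It lies on chromosome 13 on the minus strand with start sites at 29044890 and 29045582, and 2 anchors cover them. Bulk libraries ran from 82.6 through a median of 265 to 573 CPM, and double positive libraries held 94.9, 87.9, 39.3, 39.4 and 107 CPM. The groups overlapped only through bulk replicate 11, the library with 82.6 CPM. The means were 289 ± 142 and 73.7 ± 32 CPM, a log2 fold change of -1.93 (SE 0.32, adjusted p = 3.44e-06, edgeR), against -0.18 with library size alone (adjusted p = 0.613). The promoter anchors themselves gave -1.48 and -1.63, and 0.17 and 0.02 with library size alone, in a set of anchors of which 75.5% were called lower and 10.5% higher. Nearby, 13 of 24 other genes tested within 5 Mb were lower, with a median of -0.96.

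**Figure D3:**
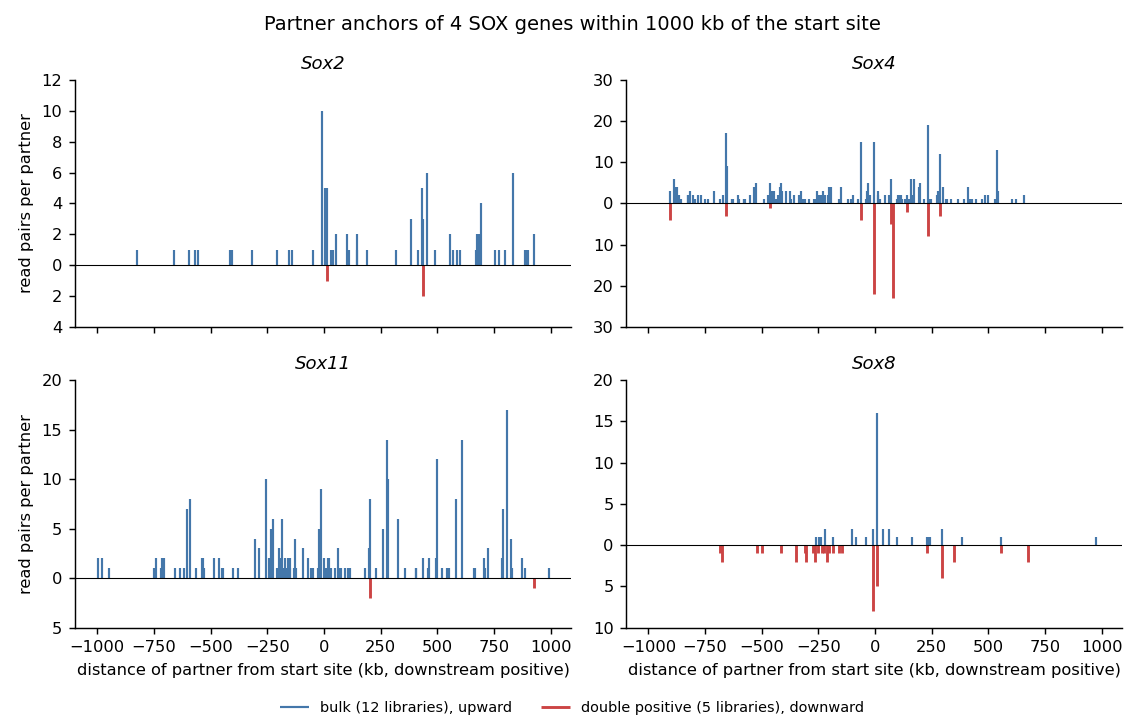
Read pairs from the start sites of Sox2, Sox4, Sox11 and Sox8 to each partner anchor within 1000 kb, against the signed distance from the start site in kb, with bulk upward and double positive downward. Counts are raw sums over 12 and 5 libraries. Sox4 has a double positive line of 23 read pairs at 80.5 kb with no bulk line above it, Sox11 has bulk lines on both sides with 2 double positive partners in this range, and the double positive lines of Sox8 are many and short.

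The loops of Sox4 were mostly long in bulk. There, 83% of its 365 read pairs spanned over 100 kb (95% Wilson interval 78.8 to 86.5), and in double positive libraries 32.5% of 80 did (23.2 to 43.4). These intervals treat read pairs pooled over libraries as independent and leave out the spread between libraries. They are too narrow if PCR copies of a molecule were counted more than once. In every bulk library at least 75% of Sox4 read pairs were this long, and the double positive libraries held between 0% and 60%. The 0% and the 60% come from double positive replicates 3 and 4, with 5 read pairs each. Of the 80 double positive read pairs, 22 joined its own promoter anchors and 23 went to a partner 80.5 kb away, both described below. How many other genes differ in this way was not counted. Over all loops of the series the shares were 54.9% and 44.7%. No test of this share was run.

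Its own start site took 27.5% of the double positive read pairs of Sox4 and 4.11% of the bulk ones. The loop between its own 2 promoter anchors (chromosome 13, 29042303 to 29046494 and 29048878 to 29052731, 6.41 kb apart) held 7, 2, 1, 1 and 11 read pairs in double positive replicates 1 to 5 and 0 to 4 in bulk libraries. It was one of 2 SOX loops deep enough to test, and did not pass, with a log2 fold change of 0.13 (SE 0.51, adjusted p = 0.84, edgeR). Of all loops tested 38.1% were called higher and 22.4% lower. With library size alone this loop was called higher (2.38, adjusted p = 4.78e-06, edgeR), as were most loops, whose median was then 2.99.

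A stretch 80.5 kb downstream of Sox4 (chromosome 13, 28961153 to 28967630, between genes) was joined to it in double positive libraries alone. Both promoter anchors reached it, with 12 and 11 read pairs. By replicate the 23 read pairs fell as 8, 6, 4, 0 and 5, and the 12 bulk libraries held 0 in all. The anchor itself was in use in bulk, with 62 read pairs, none of them to Sox4, and held 53 in double positive libraries, the 23 included. Other partners of Sox4 within 20 kb of it held 9 bulk and 5 double positive read pairs. Each of the 2 loops had fewer than 20 read pairs, so neither was tested, and the pair was singled out after its values were seen. The middle 240 bases of this anchor, chr13:28964271-28964510 of mm9 on the plus strand, are shown because it is the partner of the double positive loops. Capitals mark a GATA core (AGATAA or TTATCT), found in 14.9% of such windows over all 216081 anchors, and neither SOX core searched (ACAATG or ACAAAG, on either strand, in 14.3% and 21.1% of windows) was there.
Sox4 partner: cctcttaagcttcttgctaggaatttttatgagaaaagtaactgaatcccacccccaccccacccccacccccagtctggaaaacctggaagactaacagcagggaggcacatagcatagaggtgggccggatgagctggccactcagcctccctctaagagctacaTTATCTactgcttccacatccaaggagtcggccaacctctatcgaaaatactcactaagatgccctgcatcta

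In bulk, Sox4 reached both ways. Its partner with the most bulk read pairs lay 234 kb downstream (19 bulk, 8 double positive) and a further one lay 536 kb downstream (13 bulk, 0 double positive). On the upstream side, a site 658 kb away inside Cdkal1, whose gene product modifies a transfer RNA, held 17 bulk and 3 double positive read pairs. In all, 140 of the 365 bulk read pairs ended inside another gene and 4 of the 80 double positive ones did.

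Sox11, the other SoxC factor and a gene of early neurons, was nearly without loops in double positive libraries. Its one start site is at chromosome 12, 28027574, on the minus strand. Bulk libraries held 5 to 66 read pairs, 324 in all, at 82.6 to 477 CPM, and the double positive libraries held 0, 2, 0, 2 and 0. Every double positive library lay below every bulk library, also with library size alone, where this held for Sox11 and Sox5 and for 8.93% of all genes. The means were 260 ± 120 and 5.11 ± 7.31 CPM, a log2 fold change of -5.71 (SE 0.51, adjusted p = 2.63e-11, edgeR), and -4.12 with library size alone (adjusted p = 1.38e-07). Without double positive replicate 4, which held 2 of the 4 read pairs, it was -6.32. Of 33 genes tested within 5 Mb of Sox11, 22 were lower with a median of -3.40. None had a lower fold change than Sox11, but with counts near 0 the size of a fold is limited by the bulk count. This rank therefore does not set Sox11, with 324 bulk read pairs, apart from its region.

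The bulk loops of Sox11 were the longest of the 9 genes by median, at 489 kb, and 93.8% of their read pairs ended between protein-coding genes. Downstream, 4 partners held 17 read pairs at 809 kb, 14 at 608 kb, 12 at 499 kb and 14 at 278 kb. All held 0 from Sox11 in double positive libraries. The anchors at 809 and 278 kb had 288 and 198 bulk read pairs in all their loops. No double positive library used either of them, so their zeros are not particular to Sox11. The anchor at 608 kb held 5 double positive read pairs from other places. The loop with the most read pairs, 13 from the main promoter anchor to 809 kb, was found in 4 bulk libraries, and 7 of the 13 came from bulk replicate 2. The loop of the same anchor to 608 kb held 8 of its 10 read pairs in bulk replicate 4, while that to 278 kb was spread over 7 libraries with at most 2 in one. The upstream side drew about as many bulk read pairs, 164 against 160, and 10 of them reached a site 256 kb away. In double positive libraries the partner with the most read pairs lay 203 kb downstream, with 2, against 8 in bulk. The middle 240 bases of the 809 kb partner (chromosome 12, 27217353 to 27220381) are shown as the far end of the bulk loops, from chr12:27218747-27218986 of mm9 on the plus strand. None of the 4 motifs searched in anchors (both SOX cores, the GATA core, the octamer) was in this window, so it has no capitals.
Sox11 partner: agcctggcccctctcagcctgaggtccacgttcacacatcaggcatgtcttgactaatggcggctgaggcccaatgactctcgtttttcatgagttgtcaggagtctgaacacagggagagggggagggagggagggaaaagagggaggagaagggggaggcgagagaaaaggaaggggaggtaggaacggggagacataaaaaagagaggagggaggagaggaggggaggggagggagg

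Sox5, a long gene whose SoxD product shapes cartilage and the timing of cortical neurons, had no read pair in any double positive library. Its start sites spread on chromosome 6 from 143895608 to 144730497 and took 6 anchors, none of which appeared in a double positive file. Bulk libraries held 5 to 21 read pairs, 150 in all, at 81.8 to 205 CPM with a median of 130 and a mean of 137 ± 38.5 CPM (SD, n = 12). The test gave an adjusted p of 1.19e-11 (edgeR), and no fold is given because the anchors were not seen in the other group. Of the genes tested within 5 Mb, 40 of 48 were called lower as well, with a median of -4.56. In bulk, 81 of the 150 read pairs stayed inside Sox5, and 116 of its 132 loops had 1 read pair. The strongest loops held 3 read pairs each and joined the most upstream promoter anchor to a site 12.2 kb further upstream and to one 9.60 kb downstream inside the gene. Bcat1, an amino acid transaminase, was its most frequent start-site partner, with 6 bulk read pairs over 259 to 1139 kb.

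Sox6, a SoxD gene that acts with Sox5 in cartilage and neurons, had different values at its different start sites. Its 5 start sites lie on chromosome 7 from 122968221 to 123182258, on the minus strand, so that the most upstream one has the highest coordinate. Summed over all of them, bulk libraries ran from 81.9 to 278 CPM and double positive libraries held 43.8, 48.8, 31.5, 31.5 and 41.1 CPM, with no overlap. The means were 163 ± 55.1 and 39.3 ± 7.69 CPM, a log2 fold change of -2.01 (SE 0.28, adjusted p = 2.86e-07, edgeR), against -0.26 with library size alone (adjusted p = 0.445) and -0.70 on anchors used by both groups (adjusted p = 0.153). Among 56 other genes tested within 5 Mb of Sox6, 35 were lower, with a median of -1.61. What part such regions had in the SOX values was not tested. At the most downstream start site (anchor 122967588 to 122970536) 59 bulk read pairs stood against 3, all in double positive replicate 1, and the anchor's log2 fold change was -3.63 (SE 0.62, adjusted p = 1.11e-06, edgeR) and -5.55 without that library. At the most upstream one (anchor 123181440 to 123185599) the counts were 41 and 30 and the log2 fold change was -0.14 (SE 0.45, adjusted p = 0.773), which turned to 1.49 with library size alone (adjusted p = 0.0025). The difference between these start sites was not tested. Of the anchors between these, the one nearest the upstream end (123174427 to 123179216) held 66 bulk and 24 double positive read pairs. The other 4, with 6 to 16 bulk read pairs each, had none in double positive libraries.

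The loop that led Sox6 in double positive libraries joined the 2 anchors at its upstream end. It spanned 6.7 kb and held 5, 4, 1, 1 and 3 read pairs in replicates 1 to 5, and 4 in all bulk libraries together. One of these anchors also lies at 1110006G14Rik, so its read pairs are shared with that gene. In bulk the leading loop was another, 8.46 kb long, from the downstream start site to a site inside Sox6. It held 8 read pairs in 7 libraries and 0 in double positive ones, which did not use its partner anchor at all. Of the bulk read pairs 95 of 191 stayed inside the gene, against 9 of 40. The start sites of Plekha7 and of the ribosomal protein gene Rps13, up to 302 kb upstream, were reached by 7 double positive read pairs and 1 bulk read pair.

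**Figure D4:**
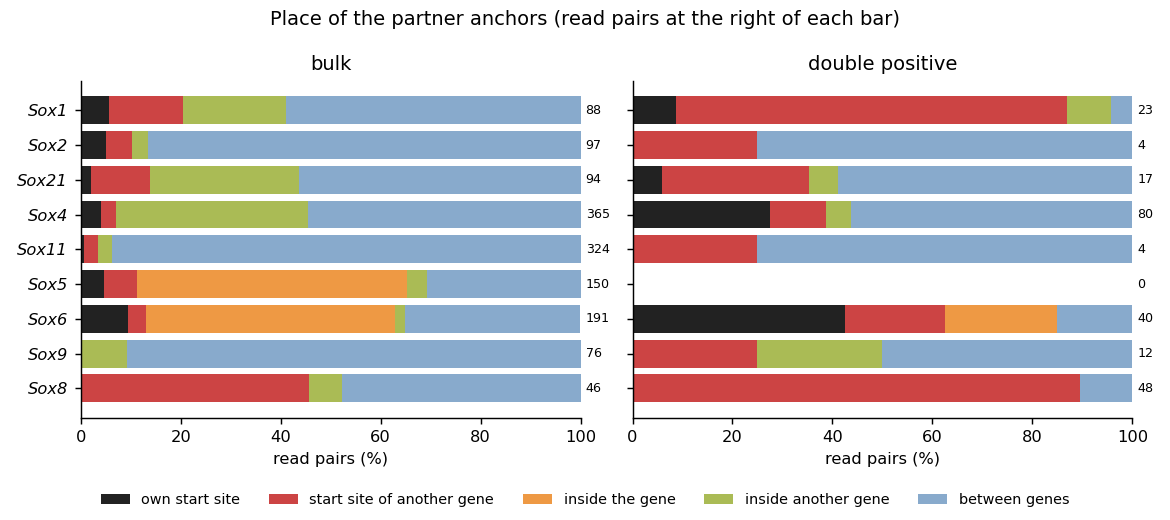
Share of each gene's read pairs (%) by the place of the partner anchor, in bulk (left) and double positive libraries (right), with the number of read pairs beside each bar. Partners between genes lead for 7 genes in bulk, while start sites of another gene take 78.3% of the double positive read pairs of Sox1 and 89.6% of those of Sox8. Sox5 has no double positive bar.

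Sox9, a SoxE factor of glia, cartilage and the testis, was low in both groups. Its start sites lie on chromosome 11 from 112643538 to 112646042, under 1 anchor 8175 bp wide. Bulk libraries held 0 to 18 read pairs at 0 to 117 CPM with a median of 61.5, and double positive libraries held 14.6, 0, 7.86, 7.88 and 24.7 CPM. All double positive values lay inside the bulk range, where bulk replicates 10 and 12 held none and bulk replicate 8 held 20.7 CPM. All 5 lay below the bulk median. The means were 61.8 ± 40.4 and 11 ± 9.22 CPM, a log2 fold change of -2.34 (SE 0.54, adjusted p = 0.000269, edgeR), and -0.65 with library size alone (adjusted p = 0.286). Within 5 Mb of it, 51 of 115 other genes tested were lower, with a median of -0.45. Sox9 lies in a wide gap between genes, and 69 of 76 bulk read pairs ended between genes. In bulk 55 read pairs reached downstream and 21 upstream. The leading bulk partner was 26.5 kb downstream with 6 read pairs, the next 101 kb downstream with 5. A partner 1246 kb upstream held 4 bulk read pairs in 2 libraries, and all 12 double positive read pairs went downstream.

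Sox8, the other SoxE gene and the one not called lower, acts in neural crest, glia and testis. It lies on chromosome 17 on the minus strand, with start sites from 25707159 to 25707631 under 1 anchor. Bulk libraries held 0 to 7 read pairs, 46 in all, at 0 to 124 CPM with a median of 40.6, and double positive libraries held 47.4, 39.1, 39.3, 71 and 53.4 CPM. All double positive values lay inside the bulk range. The means were 43.9 ± 33 and 50 ± 13.1 CPM, a log2 fold change of 0.24 (SE 0.40, adjusted p = 0.611, edgeR). With library size alone it was higher (2.0, adjusted p = 1.77e-05, against 55.3% of all genes), while it turned to -0.49 on anchors used by both groups (adjusted p = 0.311) and to -0.72 with a window of 10 kb (adjusted p = 0.0513). Sox8 lies among many genes: of 218 tested within 5 Mb, 49 were lower, and their median was 0.28.

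The bulk loops of Sox8 were led by a short one of 7.97 kb to a site between genes (chromosome 17, 25697782 to 25699580) with 16 read pairs in 10 of 12 libraries, at most 4 in one. Double positive replicates 1 to 5 held 1, 1, 1, 2 and 0. Its log2 fold change was -1.81 (SE 0.64, adjusted p = 0.00922, edgeR). Of the 2 SOX loops tested only this loop was called, where 22.4% of all loops tested were lower and 38.1% higher. Its value was 0.31 with library size alone and -1.47 without double positive replicate 5 (adjusted p = 0.0548, edgeR). The call was also lost with the replicate block (-1.79, adjusted p = 0.104), with the scaling factors of the gene sums (-1.28, adjusted p = 0.0598) and with no filter (-0.63, adjusted p = 0.539). Double positive libraries were led by the opposite side: a loop of 9.51 kb to the start site of Lmf1, a lipase maturation factor, with 2, 2, 0, 2 and 2 read pairs, against 2 in all bulk libraries. In all, 43 of 48 double positive read pairs ended at start sites of other genes and 21 of 46 in bulk. All 48 were spread over 27 partners, 17 of them with 1 read pair. Upstream partners took 32 of 48 read pairs in double positive libraries and 12 of 46 in bulk.

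Other members of the family were given by a list chosen with earlier results of these data known. Of 11 other SOX genes 6 were tested, of which 1 was higher and 2 were lower, with a median log2 fold change of -0.55. These shares, 16.7% and 33.3%, lay near those of all genes tested (20.6% and 42.8%, median -0.52). Sox15 rose by 1.59 (SE 0.31, adjusted p = 3.27e-05, edgeR), from 56.5 ± 37.1 to 172 ± 29 CPM, and the 157 other genes tested within 5 Mb had a median of 0.60. Sox13 fell by 3.23 on the log2 scale (adjusted p = 6.5e-15) and Sox18 fell by 1.74 (adjusted p = 3.19e-05). Other genes within 5 Mb moved with them: 87 of 107 around Sox13 were lower with a median of -3.65, and 46 of 63 around Sox18 with a median of -1.36. The part of these regions was not tested. The endoderm factors Sox7 (0.63, adjusted p = 0.166, edgeR) and Sox17 (-0.57, adjusted p = 0.404) did not pass, nor did Sox12 (-0.53, adjusted p = 0.0754). Other genes tested within 5 Mb had lower medians: -1.97 around Sox7 (65 genes), -4.93 around Sox17 (9 genes) and -2.05 around Sox12 (138 genes). Sox3, Sox10 and Sry had no read pair in either group.

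Of 7 tested factors that bind beside SOX proteins, 6 were lower and 1 higher, with a median of -3.17. The lists overlap: Pax6 and Pou3f2 were also counted among the neural markers above, and Pou5f1 among the pluripotent ones. Nes and Tubb3 were counted among the neural markers and again among the SoxB and SoxC genes below. The counts of these lists are therefore not separate. Of all genes tested 42.8% were lower and 20.6% higher, with a median of -0.52. Pou3f2, a POU factor of neurons, fell from 322 ± 113 to 7.96 ± 5.97 CPM, a log2 fold change of -5.15 (adjusted p = 4.05e-13, edgeR), and the 15 other genes tested within 5 Mb had a median of -4.25. Pou3f1, Pou3f3 and Pax6 also fell further than the median within 5 Mb of them. Pou2f1 (-3.41) and Sall4 (-2.04) fell less than theirs (-5.75 and -3.68). Pou5f1, which encodes the pluripotency factor Oct4, rose by 1.06 (SE 0.41, adjusted p = 0.0225), from 28.1 ± 18.2 to 57 ± 32.7 CPM, where the 198 other genes tested within 5 Mb had a median of 0.87. Among genes that SoxB and SoxC proteins act on or that mark neural cells, 10 of 12 tested were lower (83.3%, against 42.8% of all genes) and none was higher, with a median of -2.15. Prox1 had the smallest p, with a log2 fold change of -5.07 (adjusted p = 5.33e-16, edgeR), in a region where all 56 other genes tested within 5 Mb were lower (median -5.89). Lefty1 (-2.17) and Gli2 (-3.87) also fell less than the median of their regions (-4.14 and -4.28), and the other genes called lower fell further. Of 6 tested genes of SoxD and SoxE action 4 were lower (66.7%, against 42.8% of all genes) and 1 higher (16.7%, against 20.6%), with a median of -2.20: Mbp of myelin fell by 4.32 (adjusted p = 3.12e-08), where the 26 other genes within 5 Mb had a median of -1.42, and Amh, the anti-Müllerian hormone, rose by 1.00 (adjusted p = 0.00668), where the 198 other genes within 5 Mb had a median of 0.63.

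Genes that varied alike across the 12 bulk libraries were sought for Sox4 and Sox11, the pair with the most read pairs. Over 6602 genes, the log2(CPM + 1) of Sox4 was most like that of Atf4 (Pearson r = 0.923), Fdft1 (0.914) and Rhebl1 (0.909). Sox11 was most like Per1 (0.944), Dll1 (0.916) and Zfp503 (0.891), among 6603 genes. These are descriptions with no test, and the genes were picked as the highest r among all those compared over 12 libraries. Depth also varied between the libraries: the same values of Sox4 and Sox11 had an r of 0.559 and 0.426 with the log2 library total.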

How the data were processed

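H3K27ac HiChIP was read in 17 libraries of RA-treated EBs, 12 bulk and 5 double positive. Reads had been aligned to mm9 by HiC-Pro and turned into anchors and loops by hichipper. What the authors deposited is raw counts of read pairs for each pair of anchors, one file a library. Which libraries gave the peaks is not given in the sources used here. Only anchor pairs with a read pair are listed, and read duplicates carry no molecular identifiers.

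Overlapping anchors of all files were joined into 216081, which left 1211657 loops and dropped 700 read pairs whose anchors became one. Read pairs were summed by loop, by anchor and by protein-coding gene (an anchor within 5 kb of a GENCODE M1 start site; Sox1 by its RefSeq GRCm38.p6 promoter, since that annotation did not list it). Groups and replicate numbers come from the sample titles. Sums with at least 20 read pairs in at least 5 libraries were tested, double positive against bulk, with edgeR 4.0.16 (R 4.3.3) by TMM scaling, the quasi-likelihood test and Benjamini-Hochberg adjustment over all features, at an adjusted p of 0.05. The standard error is the log2 fold change over the root of F. DESeq2 1.42.0, other scalings, filters, windows and thinning, a replicate block and leaving out each library were alternatives. Python 3.11.15, numpy 2.4.6, pandas 2.3.3 and scipy 1.17.1 were used. Distances run from the nearest start site of the gene to the middle of the partner anchor and spans between anchor middles.

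In data simulated at 13738 genes, 63% of 200 genes changed by 4-fold were called, with 2.33% false calls. For loops these were 55.5% and 4.31% (4602 loops), and for anchors 42.5% and 8.6% (38948 anchors). Only 200 features were changed each time, up and down in equal number, so the scaling was not put to the test. These rates need not hold for the real data, where 42.8% of genes were called lower and 20.6% higher. Every pair of libraries of a group differed beyond sampling noise by a chi-square test, so none was taken for a repeat deposit. Same-numbered libraries did not deviate together (correlations -0.014 to 0.010 over 5 pairs), so numbers were not taken as pairs.

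The genes, lists and named loops were chosen with earlier results of these data known. Named are the 9 genes, their strongest loops in either group, the loops tested, and list genes with the smallest p in each direction. The sequence windows are read from mm9.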

Additional observations from a re-analysis of the deposited data

How the results depend on the processing

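There were 8 SOX genes called lower with any 1 library left out and under every other alternative but 2, and Sox8 was called higher with library size alone. With library size alone 3 of the 9 were lower, and on shared anchors 4 of 7. Over all genes, lower calls went from 6041 to 3787 (at least 50 read pairs), 3702 (library size alone, with 7800 higher), 9772 (no filter), 988 (shared anchors) and 3025 (thinned to 50508 read pairs a library). Leaving out a library gave 2581 to 3002 higher and 5823 to 6067 lower. Over loops, higher and lower calls were 334 and 197 with at least 50 read pairs, 4129 and 740 with library size alone, and 1121 and 121 when thinned. Lower loops were 44 with no filter, 552 on shared anchors and 413 with spans of at least 20 kb. Lower anchors were 8787 with at least 50 read pairs, 151882 with no filter, 1897 on shared anchors and 7599 when thinned, and 9879 were higher with library size alone. The cause of these moves was not tested.

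Signs turned for Sox1 (0.05, library size alone) and Sox8 (-0.72 with a 10 kb window, -0.49 on shared anchors). With library size alone the anchors of Sox4 were 0.17 and 0.02 and those of Sox6 0.53 (123174427) and 1.49 (123181440), and the Sox8 loop was 0.31. The Sox6 anchor at 123181440 was also 0.12 with DESeq2, 0.69 on shared anchors and 0.18 when thinned, and ran from -0.39 to 0.10 with 1 library left out. The Sox4 loop ran from -0.44 (without double positive replicate 5) to 0.36.

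With the replicate number as a block, over the 10 libraries that share numbers, 2588 genes were higher and 5812 lower, with 8 SOX genes lower. Loops called higher fell to 1100 against 1440 in the same 10 libraries without the block. The Sox4 loop was -0.22 and the Sox8 loop -1.79 (adjusted p = 0.104, edgeR). Scaling loops by the factors of the gene sums, an alternative chosen after seeing the data, gave -1.28 for the Sox8 loop (adjusted p = 0.0598, edgeR) and 0.70 for the Sox4 loop.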
